A study of Rattus norvegicus with 2 samples.

Results

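Kinesins and cytoplasmic dynein are the motor proteins that walk along microtubules. Their genes were examined in primary rat oligodendrocyte precursor cells (OPCs), proliferating glia from which the myelin-forming oligodendrocytes arise. Members were all entries of the deposited gene table whose symbol is that of a kinesin (Kif or Kifc), a kinesin-associated subunit (Kifap3 or Klc), a dynein subunit (Dync, Dynll, Dynlr or Dynlt) or a dynactin subunit (Dctn). This gave 65 of 17202 genes. They were set in 4 classes by their known roles: 11 mitotic kinesins, 22 transport kinesins, 17 genes of cytoplasmic dynein 1 and dynactin, and 15 others. The transport kinesins, dynein 1 and dynactin together are called transport motors below (39 genes).

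The treated culture received amyloid-beta (Aβ), the peptide that accumulates in plaques in Alzheimer's disease, at a dose of 1 µM over 2 days. DMSO, the solvent, went to the other culture. Both came from wild-type rat brain and were kept in the same growth medium, named OGM. The labels do not say which form of the peptide was used, and the time in DMSO rests on protocol text that speaks of Aβ alone. The labels call the cells adult in the extraction protocol and developing in the design, and both titles carry the code P1, so the age of the animals is uncertain. There was 1 library per condition, summing to 15117102 estimated counts with Aβ and to 15019416 with DMSO. With no replicates there was no test, no difference has a replicate check, and the values compare 2 libraries rather than conditions.

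The ratio used throughout is Aβ over DMSO, from CPM, which are counts scaled to library size. Its 95% interval covers counting error only. Genes that reached 1 CPM in either library were taken as measured, which holds for 61 members. TPM, which also divides by transcript length, is used to compare levels between genes. TPM values ran higher with Aβ for most genes. Over all 13510 measured genes the median log2 ratio was 0.037 by TPM and -0.00071 by CPM, so a gene can have a count ratio below 1 beside a slightly higher TPM.

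The cells had the markers of OPCs. Olig1, Olig2, Sox10, Pdgfra, Ptprz1, Gpr17 and Cspg4 were all measured, with a summed level of 2183 TPM with Aβ and 2106 TPM with DMSO and a pooled count ratio of 1.02 (1.01 to 1.03). Their ratios ran from 0.985 (0.964 to 1.01) for Olig1 to 1.17 (1.10 to 1.25) for Gpr17. Of the 7 intervals, 3 lay wholly above 1, beside 6.48% of all measured genes and 7.30% of genes at 10 CPM or more. These shares are not matched for level, and intervals are narrow at high counts, such as the 42843 of Ptprz1 with Aβ. Their part in the ratios of the motor genes was not tested. Lhfpl3, the remaining OPC marker listed, was not analysed here. Markers of other cells were present too. All 6 neuronal markers were measured, summing to 322 TPM with Aβ and 315 TPM with DMSO. The astrocyte marker Gfap stood at 838 and 793 TPM with Aβ and DMSO, and 5 of the 6 astrocyte markers were measured, summing with the last to 1429 TPM with Aβ and 1360 TPM with DMSO. The 6 markers of myelinating oligodendrocytes summed to 60.4 TPM with Aβ and 58.0 TPM with DMSO. Of the ependymal markers, which summed to 11.6 TPM with Aβ and 12.1 TPM with DMSO, Foxj1 had a ratio of 0.781 (0.568 to 1.07), Dnah5 of 1.07 (0.773 to 1.49) and Rsph1 of 1.06 (0.682 to 1.66). Microglial markers summed to 9.23 TPM with Aβ and 11.4 TPM with DMSO, and no endothelial marker reached the level of measurement. No marker found in the table was at 0 except Lum and Rgs5, of fibroblasts and pericytes, both at 0 with Aβ and at 2 and 1 counts with DMSO.

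Most kinesins walk toward the plus ends of microtubules and carry vesicles, mitochondria and RNA outward, while cytoplasmic dynein, helped by dynactin, carries cargo toward the minus ends. Another set of kinesins builds and moves the mitotic spindle and is made by dividing cells. In oligodendrocytes, transport by kinesin takes myelin basic protein mRNA out into the cell processes.

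Motor genes stood at closely similar levels in both libraries. No member passed the rule of size, which asks for at least a 2-fold difference and a counting interval that leaves out 1, and which called 0.696% of all measured genes. Of the 61 measured members, 56 had a counting interval that stayed inside 1.5-fold, against 80.0% of measured genes. Intervals narrow with more counts, so these shares are not matched for level. A level of 10 CPM was reached by 56 of 61 members and by 10322 of 13510 measured genes. Of the 56 members at 10 CPM or more, 4 lay beyond 1.1-fold (Kif5a, Dynll2, Kif7 and Kif1b), against 18.4% of all genes at that level. Within this narrow range, by counts, most mitotic kinesins lay below 1 and most transport kinesins above, while dynein and dynactin genes were evenly divided. Of the 11 mitotic kinesins, 9 had a ratio below 1 (7 by TPM). Of the 21 measured transport kinesins, 18 had a ratio above 1 (21 by TPM). Among dynein and dynactin genes, 8 of 16 lay above 1 and 8 below (12 and 4 by TPM). Over all measured genes 50.3% had a ratio below 1 and 49.7% above, by counts. Those shares were not computed by TPM, where the median gene itself lay above 1 (median log2 ratio 0.037). The TPM counts of each class therefore have a higher baseline.

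**Figure D1:**
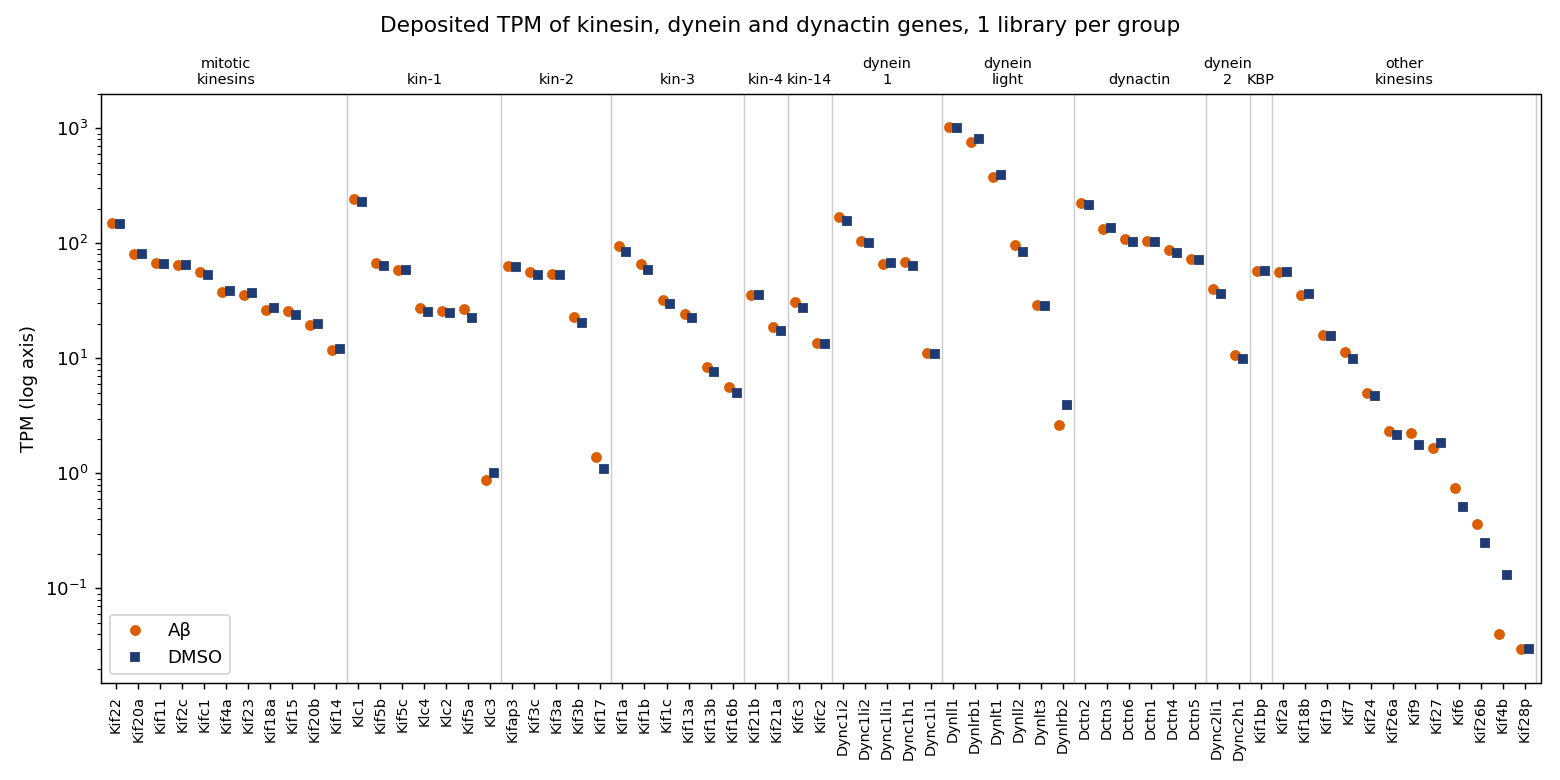
TPM (log axis) of the 65 members in the Aβ library (circles) and the DMSO library (squares), 1 library each, grouped by family and sorted by level; KBP is Kif1bp. The paired points lie close together at high levels, as for Dynll1 at 1026 TPM with Aβ and 1003 TPM with DMSO, and further apart for some low genes, as for Kif4b at 0.040 and 0.13 TPM from 2 and 6 counts.

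Together the members held 0.523% of all TPM with Aβ and 0.516% with DMSO. Dynein and dynactin genes made up most of it, with 3440 TPM with Aβ and 3434 TPM with DMSO, against 978 and 916 TPM of the transport kinesins and 576 and 572 TPM of the mitotic kinesins. All 11 mitotic kinesins were measured, from Kif22 at 151 TPM with Aβ and 148 TPM with DMSO to Kif14 at 11.8 and 12.1 TPM. The median mitotic kinesin stood at 38.0 TPM with Aβ and 38.4 TPM with DMSO, above the median transport kinesin at 31.0 and 27.6 TPM. The fewest counts among them were those of Kif18a, with 786 under Aβ and 844 under DMSO.

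Promoter letters offer a view of the classes that does not rest on the counts. Genes of mitosis in mammals are known for a promoter element called CHR, with the letters TTTGAA in its common form, which is read by the cell cycle complexes DREAM and B-Myb-MuvB, and for CCAAT boxes, which are read by the factor NF-Y. RefSeq promoters of build GRCr8, from 250 bases before to 50 after the gene's start, were found for 50 members. The first start listed was used for each gene, and both strands were searched. TTTGAA was found in 6 of 10 promoters of mitotic kinesins and in 1 of 30 promoters of transport motors, against 11.3% of promoters of measured genes and 18.1% of all promoters in the table. CCAAT was found in 7 of 10 and 11 of 30, against 37.7% of promoters of measured genes. Both were found in 5 of 10 promoters of mitotic kinesins and in 0 of 30 promoters of transport motors, against 4.74% of promoters of measured genes. These matches describe letters and were not tested as sites.

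The stretches below show both elements where they lie whole within the 140 bases before the start, in 3 mitotic kinesins, and the same stretch of the most abundant pair of kinesin-3 genes for contrast. Each runs 5′ to 3′ on the gene's strand, with TTTGAA or its reverse complement TTCAAA and CCAAT or its reverse complement ATTGG in capitals. No capital base belongs to both elements.
Kif22, chr1:191080879-191081018, minus strand: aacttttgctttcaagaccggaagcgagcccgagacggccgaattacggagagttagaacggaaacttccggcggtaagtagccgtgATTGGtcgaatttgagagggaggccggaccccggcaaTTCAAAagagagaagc
Kif23, chr8:71320585-71320724, minus strand: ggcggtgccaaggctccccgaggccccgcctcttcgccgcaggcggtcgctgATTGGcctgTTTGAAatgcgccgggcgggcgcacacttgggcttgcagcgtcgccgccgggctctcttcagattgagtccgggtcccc
Kifc1, chr20:5000789-5000928, plus strand: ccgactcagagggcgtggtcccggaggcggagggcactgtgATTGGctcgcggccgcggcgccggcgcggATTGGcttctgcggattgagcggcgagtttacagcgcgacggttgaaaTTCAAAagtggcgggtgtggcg
Kif1a, chr9:101094778-101094917, minus strand: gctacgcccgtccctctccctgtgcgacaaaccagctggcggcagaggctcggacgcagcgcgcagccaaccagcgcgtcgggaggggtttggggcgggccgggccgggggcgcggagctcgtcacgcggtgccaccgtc
Kif1b, chr5:165025849-165025988, minus strand: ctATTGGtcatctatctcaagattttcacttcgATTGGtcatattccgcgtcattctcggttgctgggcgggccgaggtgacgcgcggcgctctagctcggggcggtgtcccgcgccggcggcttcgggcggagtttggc
Of these 5, Kif22, Kif23 and Kifc1 carry both elements, Kif1b carries CCAAT alone and Kif1a neither. Ratios were not compared by promoter element.

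Mitotic kinesins that push the spindle poles apart or pull them together lay on both sides of 1. Kif11 (Eg5), which slides antiparallel microtubules apart, had 3144 counts with Aβ and 3188 with DMSO, which gives 0.978 as their ratio (interval 0.931 to 1.03). Kif15, which can stand in for Kif11 in holding the bipolar spindle, had 1060 counts with Aβ and 997 with DMSO (1.05, 0.966 to 1.15). Kifc1, the minus-end motor that draws poles together and clusters extra centrosomes, had 1175 and 1135 counts with Aβ and DMSO (1.03, 0.946 to 1.12). Kif15 and Kifc1 were the 2 mitotic kinesins with a ratio above 1, and all of these intervals held 1. By TPM, Kif11 and Kif22 also lay above 1.

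Motors of the chromosomes lay at or below 1 by counts, as they did by TPM apart from Kif22. Kif22, a chromokinesin that pushes chromosome arms toward the spindle equator, was the most abundant mitotic kinesin and had 2810 counts with Aβ and 2794 with DMSO (0.998, 0.946 to 1.05). Kif4a, the chromokinesin that also shortens the overlap of midzone microtubules, had 1690 and 1743 counts with Aβ and DMSO (0.962, 0.899 to 1.03). Kif18a, which damps chromosome movement at microtubule plus ends, had the lowest ratio of the class, from 786 counts with Aβ and 844 with DMSO (0.924, 0.837 to 1.02). The depolymerase Kif2c, or MCAK, which corrects wrong attachments at centromeres, had 1694 and 1749 counts with Aβ and DMSO (0.961, 0.898 to 1.03). None of these intervals left out 1.

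Motors of the midzone and of cytokinesis were all below 1, by counts and by TPM. Kif23, the motor of the centralspindlin complex, had 1152 counts with Aβ and 1209 with DMSO (0.945, 0.871 to 1.02). Kif20a, which brings the chromosomal passenger complex to the midzone, had estimated counts of 2218 with Aβ and 2285 with DMSO, some of them fractional (0.962, 0.908 to 1.02). Its relative Kif20b had 1034 and 1096 counts with Aβ and DMSO (0.936, 0.859 to 1.02). Kif14, which recruits citron kinase to the midbody, had 852 and 889 counts with Aβ and DMSO (0.951, 0.864 to 1.05). The 4 ratios spanned a narrow band and their intervals overlapped throughout. Kif18b, a spindle kinesin that the list of 11 leaves out, had a ratio of 0.940 (0.865 to 1.02) from 1116 counts with Aβ and 1178 with DMSO.

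No mitotic kinesin had an interval wholly below 1 or wholly above 1, while 6.90% of measured genes had an interval wholly below 1 and 6.48% wholly above. At 10 CPM or more, a level that all 11 reach, those shares were 7.51% and 7.30%. Summed over the class, 17615 counts with Aβ stood against 17929 with DMSO, and the pooled ratio was 0.974 (0.954 to 0.995). The median log2 ratio was -0.056, beside -0.00071 over all measured genes. By TPM the pooled ratio lay on the other side of 1, at 1.01, with a median log2 ratio of -0.016 beside 0.037 for all genes. In bulk RNA fewer dividing cells and less of each transcript per cell cannot be told apart.

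**Figure D2:**
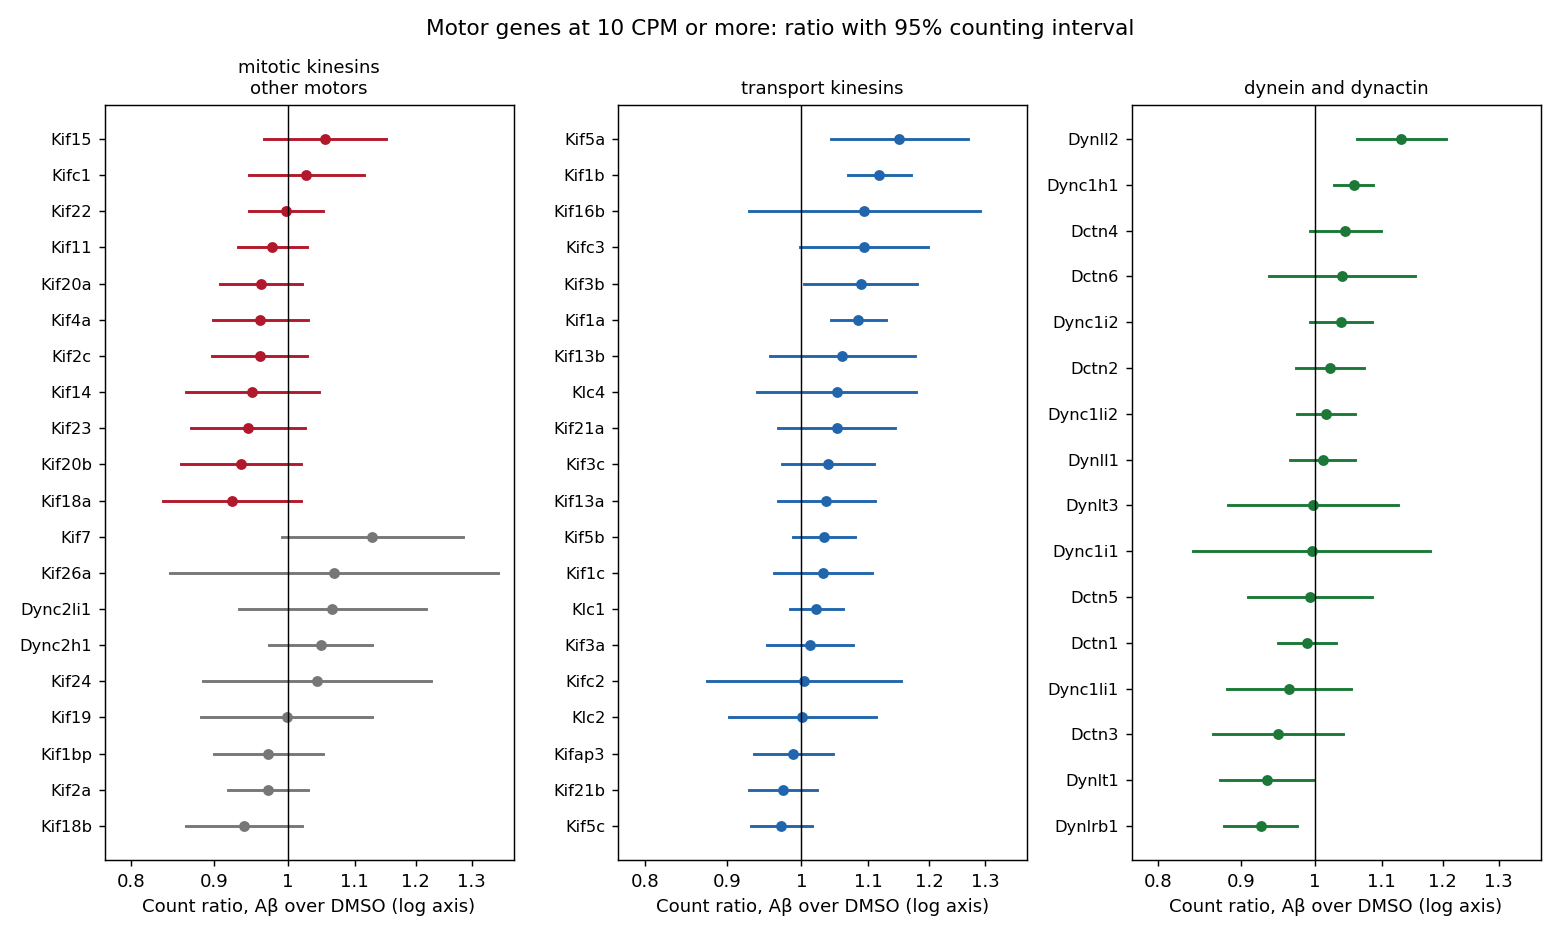
Count ratio of Aβ over DMSO (log axis) for the 56 members at 10 CPM or more, 1 library per condition, with points for the ratio and bars for the 95% counting interval; in the left panel the mitotic kinesins stand above the other motors. All 11 mitotic kinesins have bars that cross 1, and the bars of Kif5a, Kif1b, Kif3b, Kif1a, Dynll2 and Dync1h1 lie wholly above 1.

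Among the transport kinesins, kinesin-3 had the highest family median. Kinesin-3 motors carry synaptic vesicle precursors, endosomes and other vesicles. Kif1a, the most abundant kinesin-3 gene, had 5327 counts with Aβ and 4870 with DMSO (1.08, 1.04 to 1.13). Its relative Kif1b, whose mutant in zebrafish fails to place myelin mRNA in oligodendrocyte processes, had 4098 counts with Aβ and 3636 with DMSO (1.12, 1.07 to 1.17). Both intervals lay above 1. Kif1c had 1633 and 1570 counts with Aβ and DMSO (1.03, 0.962 to 1.11). The endosomal motors Kif13a, Kif13b and Kif16b stood at 1.04 (0.967 to 1.11), 1.06 (0.956 to 1.18) and 1.09 (0.928 to 1.29). All 6 kinesin-3 genes thus had a ratio above 1, their pooled ratio was 1.08 (1.05 to 1.11), from 13773 counts with Aβ and 12642 with DMSO, and their median log2 ratio was 0.10. Kif1bp, the KIF1-binding protein that holds such kinesins off the microtubule and is not itself a motor, had 1276 counts with Aβ and 1301 with DMSO (0.973, 0.900 to 1.05).

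Kinesin-1, the main carrier of mitochondria and of mRNA granules, showed no common direction among its heavy chains, although by TPM Kif5c too lay marginally above 1. Kif5a had 889 counts with Aβ and 767 with DMSO (1.15, 1.04 to 1.27), the highest ratio of the transport kinesins at 10 CPM or more. The ubiquitous Kif5b had 3978 and 3820 counts with Aβ and DMSO (1.03, 0.988 to 1.08), and Kif5c had 4110 and 4194 (0.972, 0.931 to 1.01). Kif5a was the heavy chain at the lowest level, with 26.6 TPM with Aβ and 22.5 TPM with DMSO, against 67.0 and 63.0 TPM of Kif5b and 59.0 and 58.8 TPM of Kif5c. Among the light chains, which bind cargo, Klc1 had 5446 counts with Aβ and 5287 with DMSO (1.02, 0.984 to 1.06). Klc2 stood at 1.00 (0.902 to 1.11) and Klc4 at 1.05 (0.939 to 1.18). Klc3 was below the level of measurement, with 12 counts with Aβ and 14 with DMSO.

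Kinesin-2, which drives transport in cilia and of vesicles, had 1 gene with an interval above 1. This motor subunit, Kif3b, had 1273 counts with Aβ and 1160 with DMSO (1.09, 1.00 to 1.18), with the lower limit just above 1. Its partner Kif3a had 2074 and 2031 counts with Aβ and DMSO (1.01, 0.952 to 1.08), Kif3c, the alternative partner, 1867 and 1782 (1.04, 0.973 to 1.11), and the adaptor Kifap3 2444 and 2452 (0.989, 0.934 to 1.05). Kif17, a homodimeric kinesin-2, was low, with 42 counts with Aβ and 34 with DMSO (1.23, 0.761 to 1.99). Of the other transport kinesins, the kinesin-4 motors Kif21a and Kif21b, which regulate microtubule growth, stood at 1.05 (0.968 to 1.14) and 0.974 (0.928 to 1.02). The minus-end motors Kifc3 and Kifc2 stood at 1.09 (0.998 to 1.20) and 1.00 (0.874 to 1.15).

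In all, 4 of 21 measured transport kinesins (Kif1a, Kif1b, Kif3b and Kif5a) had an interval wholly above 1 and 0 wholly below, beside the shares of all measured genes given above. Their summed counts were 43128 with Aβ and 41256 with DMSO, for a pooled ratio of 1.04 (1.02 to 1.05), and their median log2 ratio was 0.055. The median was 0.094 by TPM, beside 0.037 for all genes.

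Subunits of the dynein 1 motor itself were close to 1, and its force-producing heavy chain was slightly higher with Aβ. Dync1h1 had estimated counts of 10284 with Aβ and 9646 with DMSO, the most of any member and in part fractional, with a ratio of 1.06 (1.03 to 1.09). The intermediate chain Dync1i2, which binds dynactin, had 4111 and 3927 counts with Aβ and DMSO (1.04, 0.994 to 1.09), and its paralog Dync1i1 283 and 282 (0.995, 0.841 to 1.18). Light intermediate chains bind cargo adaptors, and Dync1li2 stood at 1.02 (0.975 to 1.06) and Dync1li1 at 0.964 (0.882 to 1.05).

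The light chains, which dimerise the intermediate chains, divided between the directions. Dynll1, Dynlrb1 and Dynlt1 were the 3 most abundant members by TPM, while Dynll2 and Dynlt3 stood at 97.5 and 29.0 TPM with Aβ and 84.1 and 28.3 TPM with DMSO. Dynll2 had 2066 counts with Aβ and 1811 with DMSO (1.13, 1.06 to 1.21), while its close paralog Dynll1 had 3634 and 3565 (1.01, 0.965 to 1.06). Dynlrb1, of the roadblock type, had 2723 counts with Aβ and 2918 with DMSO (0.926, 0.878 to 0.976). Dynlt1, of the Tctex type, had 1677 and 1780 counts with Aβ and DMSO (0.934, 0.874 to 1.00), with its upper limit just under 1. Dynlrb1 and Dynlt1 were the only members whose interval lay wholly below 1, and both lay below 1 by TPM as well. Of the 61 measured members, 2 intervals thus lay wholly below 1 and 6 wholly above. The shares of all measured genes were 6.90% and 6.48%. Dynlt3 stood at 0.997 (0.884 to 1.13), and Dynlrb2, which is known from ciliated cells, was below the level of measurement with 6 counts with Aβ and 9 with DMSO.

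Dynactin, the activator of dynein, was evenly divided, with 3 of 6 genes above 1. By TPM all but Dctn3 lay above 1, as did the median of all measured genes. Dctn1, the large subunit that binds microtubules and dynein, had 4528 counts with Aβ and 4544 with DMSO (0.988, 0.948 to 1.03). Dctn2, the subunit known as dynamitin, had 3401 and 3301 counts with Aβ and DMSO (1.02, 0.974 to 1.07). Dctn4 stood highest at 1.04 (0.993 to 1.10) and Dctn3, of the shoulder of the complex, lowest at 0.948 (0.865 to 1.04). Dctn5 and Dctn6, of the pointed end, stood at 0.993 (0.909 to 1.09) and 1.04 (0.937 to 1.15). Every dynactin interval held 1. Over dynein 1 and dynactin as a class the pooled ratio was 1.02 (1.01 to 1.03), and the median log2 ratio 0.0061. By summed TPM, which the short light chains dominate, that ratio was 1.00.

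Motors of cilia and further kinesins complete the family. The heavy chain of dynein 2, Dync2h1, which returns cargo from the tips of cilia, had 1494 counts with Aβ and 1414 with DMSO (1.05, 0.974 to 1.13), and its partner Dync2li1 463 and 431 (1.07, 0.932 to 1.22). Kif7, a regulator of Hedgehog signalling at the ciliary tip, had 513 and 451 counts with Aβ and DMSO (1.13, 0.992 to 1.28). Kif24, which acts on centriolar microtubules, stood at 1.04 (0.886 to 1.23), and Kif19, a depolymerase of motile cilia in the mouse, at 0.999 (0.883 to 1.13). The neuronal and spindle depolymerase Kif2a stood at 0.972 (0.918 to 1.03), with 56.6 TPM in both libraries. Kif26a, Kif27, Kif9, Kif6 and Kif26b were low, at 2.35 TPM or less, and their intervals all held 1. Kif9 and Kif6, known from motile cilia, had 59 and 23 counts with Aβ and 50 and 17 with DMSO. Kif4b and Kif28p were below the level of measurement, with 2 and 1 counts with Aβ and 6 and 1 with DMSO. In none of the 13 measured members of this class did the interval leave out 1. Among all measured genes 6.90% had an interval wholly below 1 and 6.48% wholly above. Kif27, Kif9, Kif6 and Kif26b had under 100 counts and wide intervals, so this count says little about the class.

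**Figure D3:**
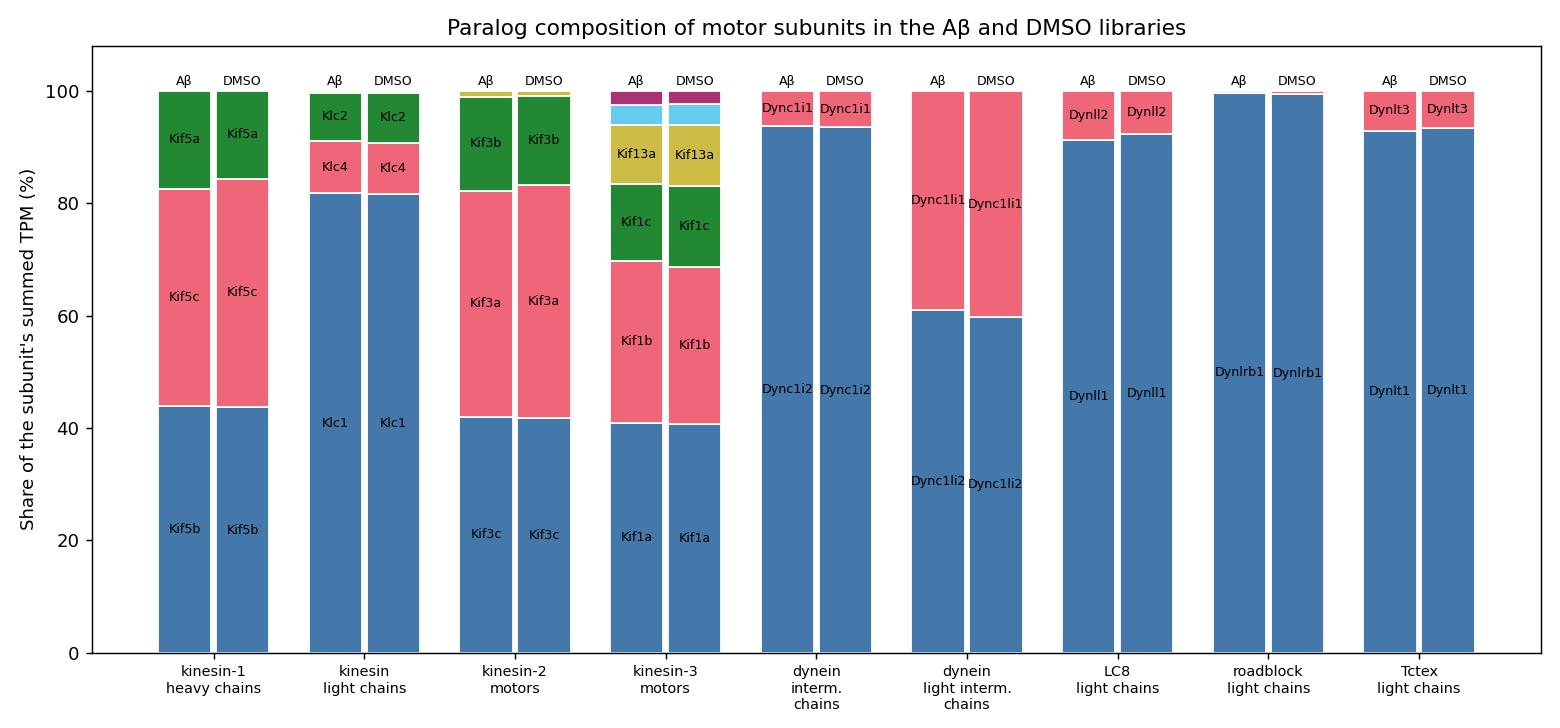
Percentage of summed TPM that each paralog contributes to 9 motor subunits or families, in the Aβ library (left bar of each pair) and the DMSO library (right bar), 1 library each. The make-up is nearly the same in both, with Kif5a at 17.4% of kinesin-1 heavy chains with Aβ, against 15.6% with DMSO.

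The choice of paralogs was nearly the same in both libraries. Kinesin-1 heavy chains were 43.9% Kif5b, 38.7% Kif5c and 17.4% Kif5a by TPM with Aβ, and 43.7%, 40.7% and 15.6% with DMSO. Kif5a, Kif5c and Kif1a are known mainly from neurons, and Kif1a made up 41.0% of kinesin-3 TPM with Aβ and 40.8% with DMSO. Neuronal markers were present in both libraries and differed little, with a pooled ratio of 0.997 (0.964 to 1.03), and their part in these levels was not tested. Of the dynein intermediate chains, by contrast, the ubiquitous Dync1i2 made up 93.8% with Aβ and 93.5% with DMSO, and the neuronal Dync1i1 the remainder. Klc1 made up 81.7% of light chain TPM in both. The LC8 pair was 91.3% Dynll1 with Aβ and 92.3% with DMSO. The second dynein light intermediate chain, Dync1li2, held 61.1% of that pair with Aβ and 59.7% with DMSO.

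Set against the transport motors, mitotic kinesins took a smaller part of motor counts with Aβ. Their share of the summed counts of mitotic kinesins and transport motors was 16.7% with Aβ (exact Clopper-Pearson interval 16.5 to 16.9) and 17.5% with DMSO (17.2 to 17.7). This share does not depend on library scaling. Against transport kinesins alone it was 29.0% with Aβ (28.6 to 29.4) and 30.3% with DMSO (29.9 to 30.7), and against dynein and dynactin alone 28.3% (28.0 to 28.7) and 29.2% (28.9 to 29.6). In each of these 3 comparisons the counting intervals of the libraries do not overlap, but they leave out any variation between cultures, which 1 library per condition cannot show. By TPM the pooled ratios lay closer together, at 1.01 for mitotic kinesins and 1.02 for transport motors. Among transport motors the summed TPM ratio was 1.07 for kinesins and 1.00 for dynein and dynactin, whose short light chains alone held 2289 of the 4418 TPM of transport motors with Aβ and 2324 of 4350 TPM with DMSO. By FPKM the pooled ratio was 0.979 for mitotic kinesins and 0.988 for transport motors.

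**Figure D4:**
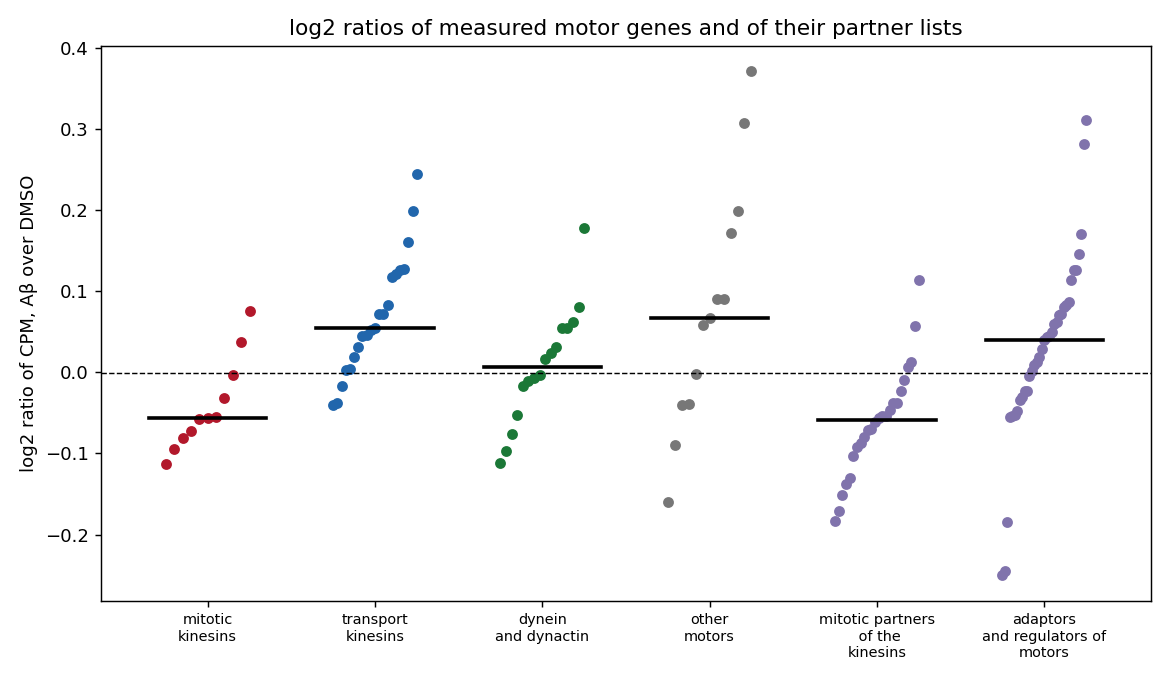
log2 ratio of CPM (Aβ over DMSO) of each measured gene in the 4 classes of motor genes and in the 2 lists of partner genes, sorted within each; thick bars are medians and the dashed line is the median of all measured genes. Mitotic kinesins and mitotic partners have medians of -0.056 and -0.059, and transport kinesins and adaptors of 0.055 and 0.040, by CPM; by TPM the medians are -0.016, -0.020, 0.094 and 0.070.

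Transcript length moved with the ratio and differed between the classes. Among genes with whole counts at 10 CPM or more, the median log2 ratio was -0.024 for transcripts under 1000 bases and 0.037 for those of 6000 bases or more. Transport kinesins had a median effective length of 4835 bases, mitotic kinesins of 3045 and dynein and dynactin genes of 1589. Dynlrb1 and Dynlt1, the pair with intervals below 1, are short, at 336 and 417 bases, and Dync1h1 is long, at 13956 bases. Within bins of length the order of the classes was not the same throughout, and few members fell in each bin. Under 1000 bases the 5 transport motors had a median of -0.076. Between 1000 and 2000 bases the median was 0.017 for 2 mitotic kinesins and 0.014 for 4 transport motors, both above the -0.011 of all genes there. Mitotic kinesins had the lower median in the next 3 bins. It was -0.086 for 2 of them and 0.031 for 5 transport motors at 2000 to 3000 bases, beside -0.0026 for all genes there. At 3000 to 4000 bases it was -0.0024 for 2 and 0.059 for 6 transport motors, beside 0.0041 for all genes. At 4000 to 6000 bases it was -0.056 for 3 and 0.072 for 9 transport motors, beside 0.019 for all genes. From 6000 bases up, the 1 mitotic kinesin stood at -0.072 and 4 transport motors had a median of 0.0068, both below the 0.037 of all genes there.

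With a smooth length trend over all measured genes removed, the median was -0.053 for mitotic kinesins and 0.044 for transport kinesins. On that scale 8 of 11 mitotic kinesins lay below 0 and 18 of 21 transport kinesins above. Of all 13510 measured genes, 6800 lay below 0 and 6710 above. The intervals of Kif1a, Kif1b, Kif5a and Dynll2 remained above 1, while those of Kif3b, Dync1h1, Dynlrb1 and Dynlt1 then held 1. Kif5c and Kif21b, both on long transcripts, had intervals below 1 on that scale, with ratios of 0.951 and 0.947. In all, 4 of 61 measured members then had an interval wholly above 1 and 2 wholly below. Among all 13510 measured genes these counts were 797 and 875.

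**Figure D5:**
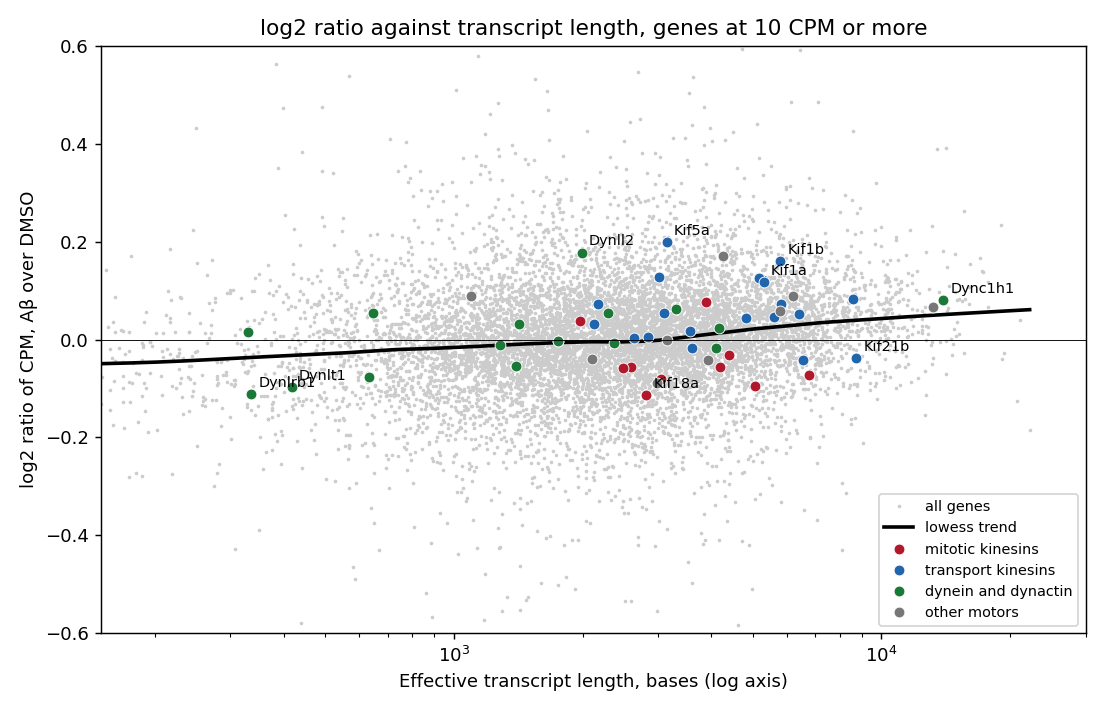
log2 ratio of CPM (Aβ over DMSO) against effective transcript length in bases (log axis) for genes at 10 CPM or more, with all genes as small grey points, the 4 classes in colour and a smooth trend as a line; genes beyond 0.6 in either direction are not drawn. The trend climbs with length, and points of both classes lie on either side of it, with the median of mitotic kinesins at -0.053 and that of transport motors at 0.029 once the trend is removed.

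The partners of mitotic kinesins had a similar median. Of 24 genes listed (regulators of the spindle and of cytokinesis), 4 had a ratio above 1 and 20 below, and 10 intervals lay wholly below 1 against 0 above. The list was chosen with earlier results of these data known, so it is no independent check of the mitotic kinesins. Over all measured genes 50.3% had a ratio below 1 and 6.90% an interval wholly below it, or 7.51% at 10 CPM or more. Their median log2 ratio was -0.059, and by TPM -0.020. The furthest were Prc1, the midzone crosslinker that recruits Kif4a, with 4641 counts with Aβ and 5226 with DMSO (0.881, 0.847 to 0.917), Plk1, a kinase of mitotic entry, at 0.887 (0.831 to 0.948), and Aurkb, the kinase of the chromosomal passenger complex, at 0.900 (0.828 to 0.978). Racgap1, which forms centralspindlin with Kif23 and was named after its value was seen, stood at 0.946 (0.901 to 0.994), next to 0.945 for Kif23. Cenpe, a kinetochore kinesin whose symbol lies outside the family names, stood at 0.984 (0.930 to 1.04).

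Adaptors and regulators of motors had a median nearer to that of the transport kinesins than to that of the mitotic kinesins. This list too was chosen with earlier results of these data known. Of 38 listed, 35 were measured, 23 of them above 1 and 12 below. Of their intervals, 6 lay wholly above 1 and 2 wholly below, beside 6.48% and 6.90% of all measured genes. The median log2 ratio was 0.040, and 0.023 with the length trend removed. The furthest were the dynein adaptor Bicd1, with 272 counts with Aβ and 216 with DMSO (1.25, 1.04 to 1.50), and the microtubule proteins Map7d3 at 1.23 (0.969 to 1.56) and Map7 at 0.839 (0.756 to 0.931), which recruit kinesin-1. Counts of Map7 were 670 with Aβ and 792 with DMSO, and those of Map7d3 161 and 130. The other members of the Map7 family, named after their values were seen, were Map7d1 at 0.963 (0.916 to 1.01) and Map7d2 at 1.06 (0.732 to 1.53).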

How the data were processed

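RNA from 1 Aβ and 1 DMSO culture was sequenced, with groups taken from the treatment label. Libraries were built with a BGI mRNA kit, per the labels' protocols. Bowtie2 and build Rnor_6.0 are named in the submitters' processing notes. No quantifier, annotation or use of strand is stated, so reads of overlapping genes on opposite strands may not be separable. The authors deposited estimated counts, TPM and FPKM per gene (per the file headers). Their normalized read count was not used.

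Counts were rounded for intervals and library factors. CPM used TMM factors from edgeR 4.0.16 in R 4.3.3, and log2 ratios a pseudocount of 0.5 CPM. Ratios have exact 95% Clopper-Pearson intervals, taken on the Aβ share of a gene's counts. PCR copies are not independent molecules, so intervals cover counting error only. Estimated counts were fractional for 6 members (Kif20a, Kif2a, Kif19, Kifc2, Dync1li1 and Dync1h1) and whole for 59. Effective length was derived from counts and FPKM, and its trend fitted by lowess over 0.3 of the genes (statsmodels 0.14.6). The calculation was tested on simulated data. Promoters came from RefSeq (GRCr8), and all but 1 member (Kif1bp, there Kifbp) carried the same symbol for their gene identifier in RefSeq.

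Members, classes and lists were chosen with earlier results of these data known. By rule the text names all mitotic kinesins, the most abundant and furthest 3 genes of each family, unmeasured members, and the furthest 3 of each partner list. Genes beyond it are further members and markers, and Cenpe, Racgap1, Map7d1 and Map7d2. Alternatives were DESeq2 1.42.0 size factors, total counts, TPM, FPKM, other filters and pseudocounts, whole counts alone and the length trend.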

Additional observations from a re-analysis of the deposited data

How the results depend on the processing

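The 7 summary results were recomputed under 10 alternatives, all planned. Counts of members past the rule of size were 0 under each of them. By TPM, the pooled ratio of mitotic kinesins was 1.01 in place of 0.974, which turned its direction, and their median log2 ratio was -0.016. By TPM, transport motors had a pooled ratio of 1.02, a median of 0.084 and 4 members below 1 in place of 11. TPM lifted the median of all genes to 0.037. By FPKM the pooled ratio of transport motors was 0.988 in place of 1.03, a turned direction. FPKM differs from TPM by a fixed factor per library, and the median of all genes was -0.0013 by FPKM beside 0.037 by TPM. The part of the short dynein light chains, which held 2289 of the 4418 TPM of this class with Aβ, was not tested. With the length trend removed the median of transport motors was 0.029 in place of 0.045. The remaining 63 values kept their direction and lay within their limits (1.5 times for counts, the counting interval for ratios). Some of these could not have moved. The pseudocount enters log2 ratios alone, so pooled ratios and counts of genes with a ratio below 1 were fixed under it. All 11 mitotic kinesins reached 10 CPM, so no filter on level could change their results. No paired analysis was possible because each condition has 1 library, and no library could be left out for the same reason. Counting error limits members under 100 counts, whose intervals reach beyond 1.5-fold.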
